A study of Mus musculus with 6 samples.

Results

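RAW 264.7, an established mouse line with macrophage traits, was used for small RNA sequencing to ask which microRNAs (miRNAs) differ after exposure to oxidized low-density lipoprotein (ox-LDL). There were 3 libraries of untreated cells (the control group) and 3 of cells given ox-LDL for 48 h (the oxLDL group), all of the same line, and the labels give no ox-LDL dose, no culture or day for any library and no time for the controls, whose columns are named 0 h. The p-values below therefore measure the spread between these libraries, which may be technical, and time in culture cannot be told apart from the treatment. The entries described here are the rows of the deposited table whose name lacks the arm suffix (5p or 3p) and whose mean over the 6 libraries was 5 reads or more. Of the names without an arm, 7 were left out by the rule itself. This gave 59 of 1109 entries, out of 137 that carry no arm, with 71 below the mean of 5 reads. They were thus selected on their mean reads over all 6 libraries, and the rule holds no value of the difference between the groups. Near the limit, however, an entry low in either group had to be higher in the other to be included. Just inside the limit were miR-1931 (mean 5.17 reads) and miR-1195 and miR-1969 (5.33 reads each), and just outside were miR-1936 and miR-6236 (4.5 reads each).

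A miRNA hairpin usually yields a product from each of its 2 sides, and an entry has no arm in its name where the database recorded only 1 product. Many such entries were registered from sequencing alone, and some lie in genes of other small RNAs or in repeats. Small nucleolar RNAs (snoRNAs) guide chemical modification of ribosomal RNA, mostly come from introns of ribosomal protein and other housekeeping genes, and can be cut into miRNA-sized fragments. Their relatives in Cajal bodies (scaRNAs) guide modification of spliceosomal RNAs. B1 and B2 elements are short interspersed repeats of the mouse genome that arose from the RNA of the signal recognition particle and from a transfer RNA, and that RNA polymerase III can transcribe.

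The sequences that carry the results follow, 5′ to 3′ and credited to RefSeq (GRCm38.p6), which held 51 of the 59 mature sequences. The first set lies at the start of a snoRNA, and capitals mark UGAUGA, the form of the C box that binds the proteins of C/D snoRNAs, where it is present, and otherwise the seed (bases 2 to 8).
miR-5121: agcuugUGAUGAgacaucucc
miR-3535: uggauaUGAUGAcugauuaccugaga
miR-1291: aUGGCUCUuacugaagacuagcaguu
The second set is shown because its members share a repeat-like run, GAGAUGGCU, in capitals.
miR-3473b: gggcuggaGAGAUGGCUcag
miR-3473e: gggcuggaGAGAUGGCUcgua
miR-3473a: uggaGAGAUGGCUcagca
miR-5128: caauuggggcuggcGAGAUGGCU
The third set shows a near copy beside the arm-named miRNA it resembles, with the differing base in capitals.
let-7j: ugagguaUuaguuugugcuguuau
let-7i-5p: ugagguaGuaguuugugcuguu
The fourth set shows the miR-378 entries, with the seed in capitals.
miR-378c: aCUGGACUuggagucagaagc
miR-378b: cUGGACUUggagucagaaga
miR-378d: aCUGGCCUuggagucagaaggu

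Together the 59 entries took a larger share of each oxLDL library than of any control library. They held 1.22%, 1.06% and 1.18% of all reads in control replicates 1 to 3 and 2.07%, 2.12% and 2.22% in oxLDL replicates 1 to 3. Most of the difference lay in 1 entry, miR-5099. Without it the share was 0.739%, 0.706% and 0.651% in control replicates and 0.811%, 0.885% and 0.928% after ox-LDL, and the groups still did not overlap.

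**Figure D1:**
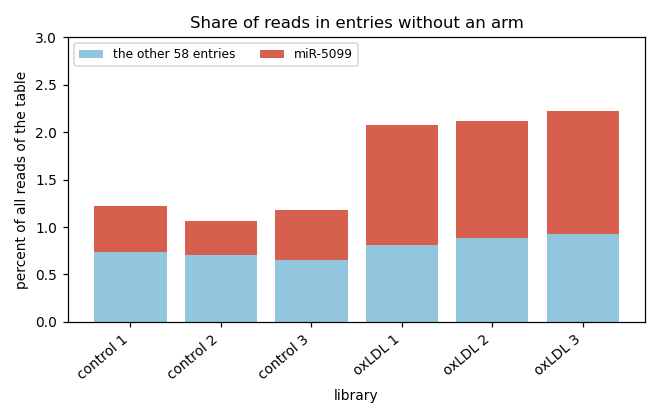
Percent of all reads of the table held by the 59 entries without an arm in each library, split into miR-5099 (red) and the other 58 (blue). The whole bars reach 1.06% to 1.22% in the controls and 2.07% to 2.22% in oxLDL.

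The libraries held between 5502833 and 7373197 reads each, and 1 CPM, the unit of reads scaled to the library's size, stood for 5.50 to 7.37 reads. Of the 59 entries, 5 had a mean of 1000 reads or more, 17 of 100 or more and 21 of under 20. Myeloid markers were present as the label implies, with miR-223, miR-142a, miR-21a and miR-146a summing to between 167816 and 186299 CPM in the controls and between 183247 and 206385 CPM in oxLDL (5 of 5 markers detected). Markers of other cells were present too. The 3 erythroid and serum markers summed to between 64.2 and 212.7 CPM in control and between 32.5 and 60.4 CPM in oxLDL, the 2 endothelial ones to between 276.9 and 478.2 and between 104.2 and 268.8 CPM, and the 4 epithelial ones to between 38.1 and 50.8 and between 57.7 and 71.1 CPM. Single markers did not all follow these sums. At an edgeR adjusted p under 0.05, 2 of the 4 epithelial markers were higher and 1 lower. Of the 3 erythroid and serum markers 1 was lower, as was the 1 endothelial marker tested. The muscle (3 markers, 62.7 to 475.8 CPM), liver (1 marker, 1.97 to 85.7 CPM), neural (1 marker, 0.164 to 5.55 CPM) and fibroblast (3 markers, 2337 to 5682 CPM) ranges overlapped between the groups. No listed marker was at 0 in all 6 libraries, and the part of these cells or of serum in the results below was not tested.

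Of the 59 entries, 47 passed edgeR's filter on low counts and were tested, in a fit over the whole table of 475 tested entries. An adjusted p (edgeR quasi-likelihood, Benjamini-Hochberg over the 475) under 0.05 was reached by 27 of the 47, and 18 were higher and 9 lower in oxLDL. The background is high: 45.7% of all 475 tested entries passed, 21.7% higher and 24% lower. The median log2 fold change was 0.16 over the 47 and -0.13 over the 475, and with library totals alone the medians were 0.0001 and -0.28, so that small changes are relative to the scaling. All 27 changed entries had CPM ranges that did not overlap between the groups, as did 7 of the 20 that did not pass, while 59.2% of all 475 tested entries did not overlap. At least 2-fold changes were seen in 14 higher entries and 6 lower ones, against 10.7% and 14.3% of all tested entries. For 5 of the 47, only 1 group held libraries over the filter's minimum (miR-6399, miR-1946b, miR-1946a and miR-30f through control, miR-709 through oxLDL), so those had to differ to be tested. Their adjusted p-values, and any lack of overlap, are therefore not independent of that filter and are no support for a difference. The calls of miR-6399, miR-1946b and miR-709 are among the 27.

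**Figure D2:**
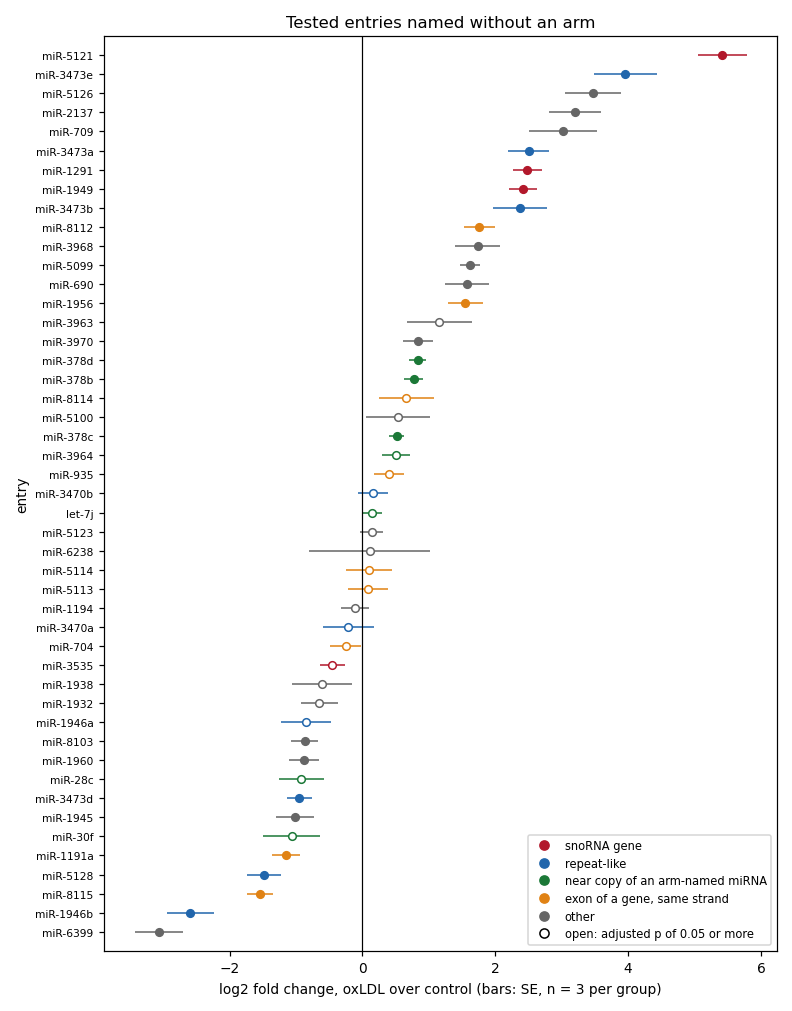
Log2 fold change of oxLDL over control for the 47 tested entries without an arm, with the standard error as bars (n = 3 per group), coloured by what their hairpin lies in or resembles. Filled points passed an adjusted p of 0.05, 18 of them right of 0 and 9 left of it.

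In GENCODE's annotation of GRCm38, 4 of the 59 entries overlap a snoRNA gene, and 3 of the 4 were higher in oxLDL. Of all 475 tested entries, 21.7% were higher. The hairpin of miR-5121 (chr7:45126918-45126991, minus strand) partly overlaps Snord33, a C/D snoRNA, and has 30 bases in common with it. GENCODE also places that hairpin over a coding exon of Rpl13a, which encodes a protein of the large ribosomal subunit. Its mature sequence is bases 3 to 23 of the 84-base snoRNA. In mouse cells, snoRNAs from introns of Rpl13a have been described as needed for the response to lipid overload and oxidative stress. It had 74, 28 and 59 reads in control replicates 1 to 3 and 1427, 2030 and 2020 in oxLDL. The lowest oxLDL library thus held many times the reads of the highest control. In scaled units miR-5121 went from 7.30 ± 3.28 to 312.9 ± 40.9 CPM (mean ± SD, n = 3; 42.8-fold, log2 fold change 5.42, SE 0.362, edgeR adjusted p = 5.31e-05).

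The hairpin of miR-1291 (chr15:98519762-98519878, minus strand, intron of Kansl2, a subunit of a histone acetyltransferase complex) partly overlaps Snora34, an H/ACA snoRNA, and has 92 bases in common with it. The mature sequence of miR-1291 is bases 1 to 26 of the 138-base snoRNA transcript. It had 27, 37 and 24 reads in control and 134, 140 and 112 in oxLDL, with no overlap. That was a 5.60-fold rise (log2 2.48, SE 0.225, edgeR adjusted p = 0.000137). The locus of miR-1949 is itself annotated as a snoRNA in GENCODE. Its reads were 26, 23 and 18 in control and 83, 107 and 93 in oxLDL, a 5.35-fold rise (log2 2.42, SE 0.208, edgeR adjusted p = 0.000107).

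The fourth entry did not follow them. The miR-3535 hairpin (chr1:86351981-86352127, minus strand) contains the snoRNA Gm24148 whole, and overlaps an exon of the nucleolin gene (Ncl). Its mature sequence is bases 1 to 26 of that 80-base snoRNA. It had 245, 301 and 229 reads in control and 140, 181 and 123 in oxLDL, which in CPM are all lower in oxLDL than in control. With the scaling used its log2 fold change of -0.45 (SE 0.192) gave an edgeR adjusted p of 0.0830 and missed the threshold. It was called lower with library totals alone (log2 -0.61, adjusted p = 0.0323) and with a minimum mean of 10 CPM (-0.56, adjusted p = 0.0399). The mature sequences of miR-5121 and miR-3535 both have UGAUGA at bases 7 to 12, and 5 of 906 other entries with a sequence (0.552%) hold those letters.

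The same overlap was looked for in the entries named with an arm. Among these, 21 lie in or match 1 of these genes and 19 were tested, from 11 genes, so that both arms of a hairpin can be counted. Of the 19, 10 were higher and none lower in oxLDL, beside 21.7% higher and 24% lower of all 475, with a median log2 fold change of 0.70 against -0.13 over all 475. Over the 15 other settings 8 to 12 were higher; where library totals alone set the scale, 9 were higher and 1, miR-7650-5p, lower (log2 -1.06, adjusted p = 0.0392). By class, 6 of 10 entries in scaRNA genes and 4 of 9 in snoRNA genes passed. The one with the most reads was miR-1839-5p, at 2924, 2545 and 2323 reads in control and 4865, 6934 and 5821 in oxLDL (2.87-fold higher, edgeR adjusted p = 0.000137). Its hairpin is annotated as a scaRNA as well. The entry miR-664-3p, in the H/ACA snoRNA Snora36b, had 155, 185 and 224 reads in control and 374, 385 and 304 in oxLDL (2.41-fold higher, edgeR adjusted p = 0.00161). In Scarna3b, miR-1843a-5p rose 2.36-fold and miR-1843a-3p 1.79-fold (edgeR adjusted p = 0.00156 and 0.0110), and in Scarna3a miR-1843b-5p rose 2.12-fold (edgeR adjusted p = 0.00230) while miR-1843b-3p stood at 99, 77 and 102 reads in control and 52, 40 and 62 in oxLDL (log2 -0.50, adjusted p = 0.114). Reads of miR-1843a-5p (1014, 670 and 829 in control, 1252, 1666 and 1762 in oxLDL) were close to those of miR-1843b-5p (1061, 728 and 890, then 1203, 1592 and 1698). How reads that match both were split is not stated, so these may not be separate measurements, though both count among the 10. The sources used here do not say how reads of all these entries were told from those of the snoRNA, so a rise of the entry cannot be told apart from a rise of fragments of the snoRNA.

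**Figure D3:**
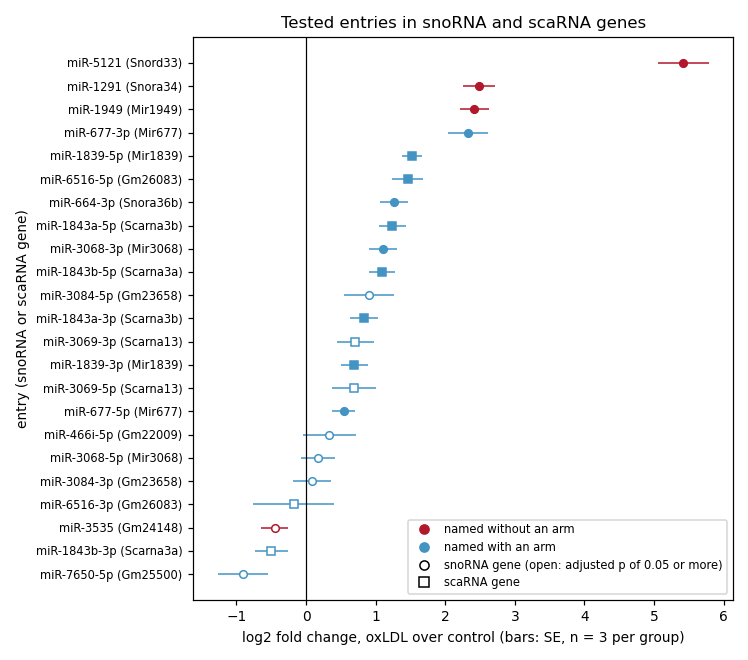
Log2 fold change of oxLDL over control, with standard error bars (n = 3 per group), for the 23 tested entries in snoRNA genes (circles) or scaRNA genes (squares). The entries without an arm (red) include the 3 largest values, and all 13 filled points, which passed an adjusted p of 0.05, lie right of 0.

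Counting matches to other classes as well, 10 of the 59 hairpins overlapped an annotated small RNA or shared a run of 20 bases with one on either strand, against 22 of 480 arm-named entries with a mean of 5 reads or more (4.58%). The other 6 matched GENCODE's miscellaneous small RNA class. None of the 58 hairpins with a known position overlapped 1 of the 430 transfer RNA genes in RefSeq. The sequence search held no transfer RNAs of nuclear genes, and only the ribosomal RNAs that GENCODE annotates.

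Repeat-like entries moved in both directions. This group has 11 entries: the 6 with such a miscellaneous match, the other members of their number families, and miR-5128. Of the 9 tested, 3 were higher, 3 lower and 3 did not pass. Over all 475 tested entries both directions were common too, with 21.7% higher and 24% lower. The 3 that rose are miR-3473a, miR-3473b and miR-3473e, whose sequence is that of the start of a B2 element. The run GGGCUGGAGAGAUGGCUC, shared by miR-3473b and miR-3473e, occurs in transcripts of 402 GENCODE genes on the same strand and of 438 on the opposite one. The whole mature sequence of miR-3473b occurs in 344 genes, that of miR-3473a in 146 and that of miR-3470b, a B1-like sequence, in 546, while no arm-named entry with a mean of 5 reads or more occurs in 100 genes. The whole mature sequence of miR-3473e occurs in transcripts of 0 genes on either strand. Reads of miR-3473b, miR-3473a and miR-3470b could come from any of those places, and for miR-3473e the count covers only the shared run.

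For miR-3473b (chr10:41670739-41670793, plus strand, opposite an intron of Ccdc162) the reads were 55, 17 and 53 in control and 143, 153 and 216 in oxLDL. For miR-3473e (chr5:31667231-31667340, minus strand, intron of the ribokinase gene Rbks) they were 20, 4 and 8 against 108, 111 and 177. For miR-3473a (chrX:162874918-162874995, minus strand, intron of Syap1) they were 7, 9 and 11 against 29, 40 and 53. The groups did not overlap for any of the 3, and control replicate 2 was the lowest library for miR-3473b and miR-3473e. The fold changes were 5.17 for miR-3473b, 15.5 for miR-3473e and 5.66 for miR-3473a (edgeR adjusted p = 0.00230, 0.000445 and 0.000454). The log2 value of miR-3473e, 3.95 over all libraries, became 4.77 without control replicate 1.

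Relatives of these went the other way. The entry miR-5128 (chr2:37688201-37688284, minus strand, intron of Strbp) ends in the same GAGAUGGCU but fell 2.79-fold, from 69, 63 and 50 reads to 15, 14 and 22 (edgeR adjusted p = 0.00230). Of 906 other entries with a sequence, none holds that run. The ratio of miR-5128 to miR-3473b went from 125.5, 370.6 and 94.3 reads per 100 in control to 10.5, 9.15 and 10.2 in oxLDL. The entry miR-3473d (chr8:111016450-111016530, minus strand, intron of the RNA helicase gene Ddx19b) carries the name of the family without that run, and its hairpin shares up to 18 bases with the miscellaneous class on the opposite strand. It fell 1.93-fold, from 288, 288 and 340 reads to 93, 152 and 130 (edgeR adjusted p = 0.00463).

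Among the B1-like entries miR-1946b (chr9:21613444-21613576, minus strand) was lower, with 26, 33 and 28 reads in control and 4, 2 and 5 in oxLDL (6.04-fold, edgeR adjusted p = 0.000779). It passed the filter only through control, so this p is no support for a difference. Its relative miR-1946a had 12, 11 and 12 against 6, 3 and 6 reads and did not pass (log2 -0.85, adjusted p = 0.0937). No difference was detectable for the miR-3470 entries. Reads of miR-3470b were 87, 60 and 89 in control and 54, 83 and 71 in oxLDL (log2 0.16, adjusted p = 0.596), and those of miR-3470a were 23, 12 and 28 and 9, 19 and 15 (log2 -0.21, adjusted p = 0.675). The sign of both small values turned when a library was left out. Another 2 entries of the group, miR-1195 and miR-1954, had too few reads to be tested.

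A group of 8 entries resembles an arm-named miRNA in sequence or in name. Of the 7 tested, 3 were higher and none lower, a share of 42.9% beside 45.7% of all 475 tested entries. The entry miR-1191a, grouped with the exon entries, meets the same sequence criterion against miR-1191b-3p (0 or 1 reads per library) and fell, so that with it 3 of 8 were higher and 1 lower. The 3 that rose are miR-378b, miR-378c and miR-378d, relatives of miR-378a-3p, a miRNA made from an intron of the metabolic coactivator gene Ppargc1b. Compared with miR-378c, miR-378b has the single difference C21A and starts a base later, and miR-378d has A6C and C21G, with positions counted from 1 at the 5′ end of miR-378c. The change A6C lies in the seed, and the later start of miR-378b shifts its seed, so the 3 have different seeds.

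The reads of miR-378c were 10326, 8712 and 9380 in control and 9570, 10900 and 11452 in oxLDL, a 1.43-fold rise once scaled (1282 ± 130 to 1832 ± 80.1 CPM; edgeR adjusted p = 0.00653). Those of miR-378d were 2442, 2362 and 1941 and 2799, 3375 and 3273 (1.78-fold, edgeR adjusted p = 0.00152), and those of miR-378b 211, 240 and 238 and 296, 319 and 308 (1.71-fold, edgeR adjusted p = 0.00325). All 3 kept their call in each of the 15 other settings. The arm-named miR-378a-3p had a log2 fold change of -0.17 (adjusted p = 0.211) and miR-378a-5p fell (log2 -0.67, adjusted p = 0.0156). Per 100 reads of miR-378a-3p there were 1.46, 1.42 and 1.44 reads of miR-378d in control, and between 2.82 and 2.96 in each oxLDL library. For miR-378c the values were 6.19, 5.25 and 6.94 in control and 9.92, 9.58 and 9.87 in oxLDL, so neither ratio overlapped between the groups. A read that ends before the last bases of these sequences could be given to more than 1 of them, and the sources used here do not say how that was settled. The difference A6C would still set such a read of miR-378d apart from miR-378c where no mismatch was allowed.

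The entry with the next most reads after miR-5099 was let-7j (chr3:140028249-140028370, plus strand), which differs from let-7i-5p by G8U (position counted from the 5′ end of let-7i-5p) and 2 further bases at its end. The let-7 family is known for restraining proliferation. Position 8 is the last base of the seed, so the seed of let-7j is not that of let-7i-5p. The reads of let-7j were 36491, 34833 and 24461 in control and 23272, 31431 and 28557 in oxLDL, and the groups overlapped (4314 ± 866 and 4765 ± 414 CPM; log2 0.14, edgeR adjusted p = 0.475). There were 10.5 to 12.6 reads of let-7j per 100 reads of let-7i-5p in the controls and 11.4 to 12.5 in oxLDL. This ratio thus stayed in a narrow band over all 6 libraries, while let-7i-5p itself was at 37621 ± 6202 and 39570 ± 3488 CPM.

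The entry miR-28c (chr15:53614205-53614279, minus strand) held 49.8 to 50.3 reads per 100 reads of miR-28a-5p in each of the 6 libraries, so the 2 are not separate measurements. Its level was 107.9 ± 8.69 CPM before and 57.0 ± 31.5 CPM after ox-LDL (log2 -0.92, adjusted p = 0.0585). The oxLDL libraries were uneven, with 202, 244 and 555 reads, and without oxLDL replicate 3 the log2 fold change was -1.49 (edgeR adjusted p = 0.000981). Other settings in which it passed include DESeq2, limma-voom, library totals alone, a mean of 10 CPM and no filter (adjusted p from 0.000197 to 0.0404). In edgeR it did not pass with RLE factors, TMM on arm-named entries only or median centring (adjusted p from 0.0748 to 0.0917). Nor did it pass when any other single library was left out (edgeR adjusted p from 0.0929 to 0.176).

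The entry miR-30f (chr4:120772606-120772697, plus strand) lies on the strand opposite the miR-30e hairpin and had 19, 24 and 11 reads in control and 7, 4 and 9 in oxLDL (log2 -1.07, adjusted p = 0.0713). It passed without control replicate 3 (adjusted p = 0.0390) and with library totals alone (0.0411). As miR-30f was over the filter only through control, these values are no support for a difference. The entries miR-3964 and miR-3969 resemble the abundant myeloid miR-142a-5p, with A6G, C20A and U21A in the first and A2C and G14U in the second (positions from the 5′ end of miR-142a-5p). Reads of miR-3964 were 36, 29 and 32 in control and 30, 43 and 35 in oxLDL (log2 0.50, adjusted p = 0.0830). It passed with median centring (log2 0.63, adjusted p = 0.0407), and miR-3969 was not tested.

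**Figure D4:**
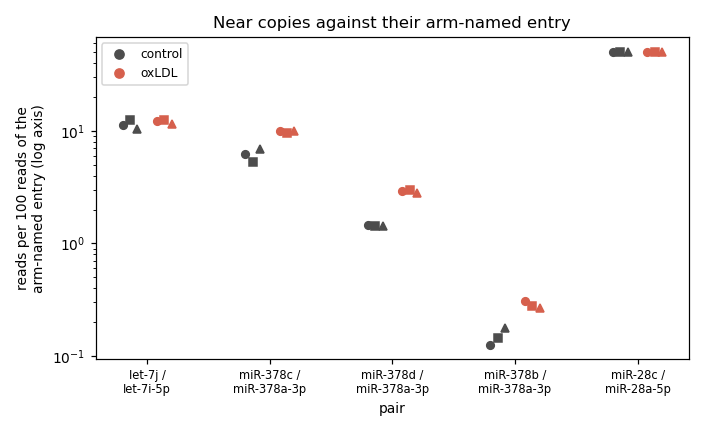
Reads of 5 entries without an arm per 100 reads of the arm-named entry they resemble, on a log axis, with 3 libraries per group (control grey, oxLDL red). The 3 miR-378 ratios are higher in every oxLDL library than in any control, the let-7j ratio overlaps between groups, and the miR-28c ratio lies between 49.8 and 50.3 throughout.

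The entry with the most reads among the 59, miR-5099 (chr12:36816205-36816278, plus strand), lies in no annotated gene other than its own. It had 35510, 25201 and 34916 reads in control and 69264, 80972 and 81747 in oxLDL. Every oxLDL library was above every control, at 4320 ± 853 CPM in the control group and 13312 ± 419 CPM after ox-LDL (3.08-fold, log2 1.62, SE 0.151, edgeR adjusted p = 0.000137). It accounted for 33.4% to 45.0% of the reads of the 59 entries in control and for 58.2% to 60.8% in oxLDL.

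The mature sequences of the members had a median of 54.6% G and C over 51 entries, against 50.0% in 425 arm-named entries. The entries with the largest rises after miR-5121 and miR-3473e are shown here with the seed in capitals.
miR-5126: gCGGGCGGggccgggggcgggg
miR-2137: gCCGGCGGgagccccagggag
The sequence of miR-5126 holds only G and C, and its hairpin (chr1:84695839-84695915, plus strand) lies antisense to the untranslated region of the Notch ligand gene Dner. It had 42, 26 and 93 reads in control and 383, 527 and 506 in oxLDL (11.1-fold, edgeR adjusted p = 0.000470). Control replicate 3 was the highest control, and leaving it out moved the log2 value from 3.47 to 4.11. The miR-2137 hairpin (chrX:72992079-72992144, plus strand) lies in an intron of Zfp185. Its reads were 648, 413 and 1075 in control and 3717, 4599 and 7283 in oxLDL, and replicate 3 was the highest library of each group (9.21-fold, edgeR adjusted p = 0.000454).

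The next pair shares the run CGAAUCC, in capitals, which is like the part of the T arm that many transfer RNAs have in common and is found in none of 906 other entries with a sequence.
miR-3968: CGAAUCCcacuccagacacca
miR-5100: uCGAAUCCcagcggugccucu
The entry miR-3968 (chr11:115447961-115448060, minus strand, antisense to a coding exon of Trim80) also ends in CCA, the letters added to the end of mature transfer RNAs. Its reads were 525, 268 and 715 in control and 1047, 1637 and 1290 in oxLDL, a 3.32-fold rise (edgeR adjusted p = 0.00455). The other entry, miR-5100 (chr11:60728663-60728726, plus strand, intron of the mitochondrial dynamics gene Mief2), had 10, 6 and 20 reads and 16, 16 and 9, which overlap (log2 0.53, adjusted p = 0.381). Neither was compared with transfer RNA sequences.

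A further 10 entries, miR-1191a among them, overlap an exon on the same strand. Of the 9 tested, 2 rose, 2 fell and 5 did not pass, a share of 44.4% beside 45.7% of all tested entries. The 4 that changed are shown with the seed in capitals.
miR-8112: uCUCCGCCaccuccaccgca
miR-1956: aGUCCAGGgcugagucagcgga
miR-8115: cCGCAAUAgcaacaagggcucu
miR-1191a: cAGUCUUAcuauguagcccua
In the untranslated region of Krcc1, miR-8112 (chr6:71271671-71271801, plus strand) rose 3.39-fold, from 58, 48 and 76 reads to 172, 170 and 141 (edgeR adjusted p = 0.000614). In that of Eif4e, which encodes the cap-binding protein of translation, miR-1956 (chr3:138526421-138526485, plus strand) rose 2.93-fold, from 41, 57 and 36 reads to 72, 106 and 132 (edgeR adjusted p = 0.00214). In neither case did the groups overlap.

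In the untranslated region of P2rx7, the gene of an ATP-gated channel known for inflammasome activation in macrophages, miR-8115 (chr5:122682597-122682715, plus strand) fell 2.92-fold, from 299, 219 and 238 reads to 55, 79 and 70 (edgeR adjusted p = 0.000537). In that of BC024978, miR-1191a (chr7:27205536-27205655, plus strand) fell 2.22-fold, from 291, 220 and 255 reads to 67, 112 and 94 (edgeR adjusted p = 0.00285). Again every oxLDL library was below every control. Whether the host transcripts moved was not measured, and these reads cannot be told apart from pieces of the host messenger RNA. The 5 that did not pass are in Cacng8 (miR-935), the glutamine synthetase gene Glul (miR-8114), Tnrc6b, a partner of Argonaute (miR-5113), Pdia4, an oxidoreductase of the endoplasmic reticulum (miR-704), and the fatty acid desaturase gene Scd2 (miR-5114). Their log2 fold changes were 0.40, 0.66, 0.08, -0.25 and 0.10.

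**Figure D5:**
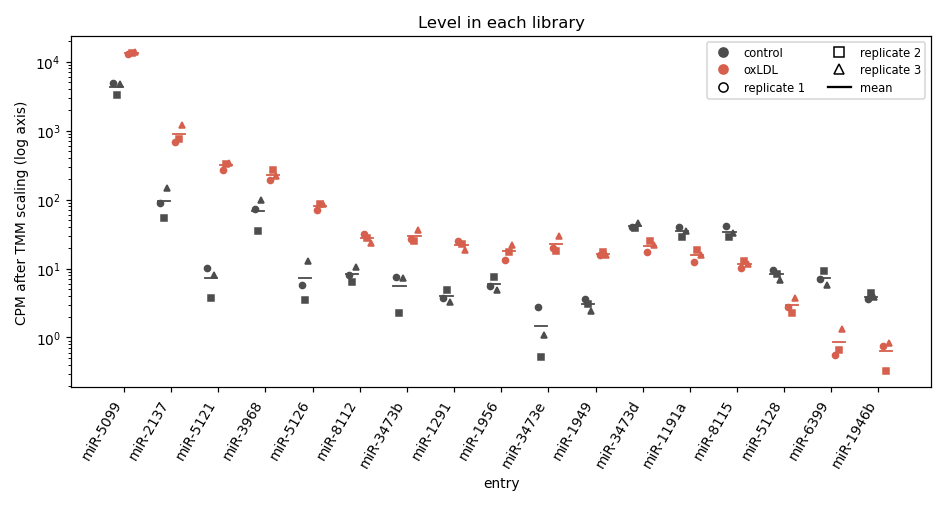
CPM after TMM scaling, on a log axis, of 17 entries in the 3 control libraries (grey) and the 3 oxLDL libraries (red), with the group mean as a bar. The groups do not overlap for any entry shown, from miR-5099 at 4320 and 13312 CPM to miR-1946b at 3.92 and 0.638 CPM. For miR-6399 and miR-1946b, over the filter only through control, this is no support for a difference.

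Of the entries not yet described, miR-6399 (chr4:138163209-138163292, plus strand, intron of the translation factor gene Eif4g3) fell most. It had 52, 69 and 42 reads in control and 3, 4 and 8 in oxLDL (8.36-fold lower, edgeR adjusted p = 0.000445), with no overlap. It passed the filter only through control, so this p and the lack of overlap are no support for a difference. Its mature sequence is shown with the seed in capitals.
miR-6399: uUGCAAUGaugguauucugagg
At the other end, miR-709 (chr8:84086099-84086186, plus strand, intron of the transcription factor gene Rfx1), known in mouse cells as a miRNA found in the nucleus, had 7, 4 and 1 reads in control and 20, 38 and 21 in oxLDL (8.10-fold, edgeR adjusted p = 0.00216). It passed the filter only through oxLDL, so this p is no support for a difference. Leaving out control replicate 1 moved its log2 value from 3.02 to 3.67. The entry miR-690, in an intron of Fgf12, rose 2.98-fold, from 16, 10 and 11 reads to 18, 39 and 31 (edgeR adjusted p = 0.00625). Its hairpin shares up to 18 bases with the miscellaneous class on the same strand, under the limit of 20. The hairpin of miR-3473e shares a run of the same length, and miR-3473e was put in the repeat-like group through its family name. Counts of that group thus depend on grouping by name.

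Smaller changes rested on fewer settings. The falls of miR-8103 (log2 -0.87, in an intron of Osbpl7, of a family of sterol-binding proteins), miR-1960 (-0.88, in an intron of the fatty acid oxidation gene Hadhb) and miR-1945 (-1.02) and the rise of miR-3970 (0.84) passed in edgeR with adjusted p from 0.00865 to 0.0203. None of these 4 passed in DESeq2 (adjusted p = 0.0618, 0.135, 0.0982 and 0.0654). Without oxLDL replicate 2, edgeR's adjusted p was 0.0645 for miR-1960, 0.0697 for miR-1945 and 0.0754 for miR-3970. Calls were also lost for miR-1960 with no filter (0.0627) and without oxLDL replicate 3 (0.0518), without control replicate 1 or oxLDL replicate 1 for miR-1945 (0.0728 and 0.0583) and without control replicate 2 for miR-3970 (0.0614).

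The widest spread was that of miR-6238, with 361, 376 and 1691 reads in control and 70, 848 and 1210 in oxLDL. Its groups overlapped, with the lowest library in oxLDL and the highest in control, and no difference was detectable (log2 0.11, SE 0.911, edgeR adjusted p = 0.933). The entry miR-3963 had 24, 8 and 41 reads in control and 35, 59 and 35 in oxLDL (log2 1.15, adjusted p = 0.0830). It passed when control replicate 3 was left out (log2 1.73, adjusted p = 0.0212) and when no filter was used (0.00156). The remaining 4 tested entries, miR-5123, miR-1194, miR-1938 and miR-1932, had log2 fold changes of 0.14, -0.11, -0.61 and -0.65 and did not pass. With library totals alone miR-1932 passed as lower (log2 -0.81, adjusted p = 0.0411).

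The 12 entries below the filter held 0 to 18 reads per library. With no filter on low counts, where 22.6% of 1109 entries passed, 3 of the 12 did. They are miR-1969, with 14, 12 and 5 reads in control and 1, 0 and 0 in oxLDL (edgeR adjusted p = 4.15e-05), miR-5119, with 15, 6 and 14 and then 3, 1 and 4 (adjusted p = 0.0230), and miR-1895, with 3, 2 and 2 and then 8, 9 and 9 (adjusted p = 0.00454). All 3 reached the mean of 5 reads only through the group where they were higher. Their adjusted p-values are therefore not independent of that selection and are no support for a difference. A difference in the other 9 was not detectable at this depth.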

How the data were processed

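Per the labels' protocols, small RNA from a Trizol extract was isolated on a gel and sequenced on an Illumina machine after adaptor ligation and PCR. What the authors deposited is a single table of unscaled estimated counts, a row per mature miRNA; 117 of its 6654 values are not whole (tolerance 1e-06), and values were rounded. Per the submitters' processing notes, the build was GRCm38.p5; the aligner, counter and miRNA database are not given in the sources used here. Column names gave each library's group and number. No 2 libraries were alike within counting error (lowest chi-square per degree of freedom 111.1).

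The whole table was tested with edgeR 4.0.16 (R 4.3.3; quasi-likelihood, TMM factors, filter by group, Benjamini-Hochberg, threshold 0.05), with limma 3.58.1 and DESeq2 1.42.0 as alternatives. CPM are after TMM scaling. Adaptor ligation favours some ends, so reads of different entries cannot be ranked as molecules, and reads made by PCR are not independent. Members, groups and settings were chosen with earlier results of these data known. Named were the entries that passed without overlap, the 5 most abundant, those matching other small RNA, number families and those at the limit of 5 reads; others were chosen after their values were seen. Hairpin positions and sequences come from RefSeq (58 and 51 of 59 located) and classes from GENCODE M21. Near copies share at least 18 aligned bases with at most 3 mismatches, or a name. On simulated data the test over 468 entries called 65 of 66 changed 4-fold, 54 of 72 changed 2-fold, 21 of 59 changed 1.5-fold and 5 of 271 unchanged. Those data were drawn from the spread that the same fit had estimated, with rises and falls equally likely. They therefore cannot test the scaling, or whether the estimated spread is right for the real libraries.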

Additional observations from a re-analysis of the deposited data

How the results depend on the processing

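Settings tried were RLE factors, library totals alone, TMM on arm-named entries only, median centring, no filter, a minimum mean of 10 CPM, DESeq2, limma-voom, a replicate block and leaving out each library. Of the 27 calls, 23 held in each of the 15 settings that tested the entry. Calls among the 59 numbered 24 to 31, except 18 (13 higher, 5 lower) with a mean of 10 CPM, where only 23 were tested. Over all entries 82 were higher and 158 lower with library totals alone, and 131 and 92 with median centring, against 103 and 114. Same-numbered libraries did not deviate together (correlations -0.30, -0.23 and -0.12), so no pairing by number was detected. With 3 libraries per group such correlations constrain each other and cannot show that the design was unpaired. With the replicate block 178 of 475 entries passed, and 25 of the 59 (17 higher, 8 lower). The block ended the calls of miR-1960 (adjusted p = 0.0752), miR-1945 (0.0720) and miR-3970 (0.0690) and gave 1 for miR-28c (log2 -1.05, adjusted p = 0.0324). At a shared run of 18 bases 15 hairpins matched other small RNA, and at 24 bases 9.

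The sign turned for 8 entries that did not pass. With library totals alone the log2 fold change was -0.0028 for let-7j, -0.10 for miR-6238, -0.015 for miR-5123, -0.062 for miR-5113 and -0.049 for miR-5114. For miR-6238 it was -0.011 with a mean of 10 CPM, -0.18 with limma-voom and -0.16 with the replicate block, and for miR-1194 0.017 with median centring; the cause was not tested. With 1 library left out the ranges were -0.048 to 0.26 for let-7j, -0.54 to 1.24 for miR-6238, -0.021 to 0.22 for miR-5123, -0.044 to 0.23 for miR-3470b, -0.53 to 0.025 for miR-3470a, -0.19 to 0.29 for miR-5113 and -0.12 to 0.34 for miR-5114. Entries under 20 reads are limited by depth.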
